A study of Homo sapiens with 12 samples.

Results

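The TRAIL and FAS death receptor genes are described here in MDA-MB-468, an established line of triple-negative, basal breast cancer cells. They were chosen by gene symbol: the ligand gene TNFSF10 (TRAIL), its receptor genes TNFRSF10A (DR4) and TNFRSF10B (DR5), the decoy receptor genes TNFRSF10C and TNFRSF10D, FAS, the death receptor gene TNFRSF21 (DR6), and FADD, CASP8 and CFLAR, whose products act inside the cell. All 10 were found among the 23228 genes of the count tables. Polyadenylated RNA was sequenced from 4 groups of 3 libraries (A, B and C): cells given the vehicle DMSO, the AKT kinase inhibitor ipatasertib at 5 µM, the EZH2 inhibitor tazemetostat at 5 µM, or both drugs at these doses. The vehicle or tazemetostat was present from day -5 on, ipatasertib was added on day 0 in medium containing 2% serum, and all cells were harvested after a further 24 h. EZH2 is the histone methyltransferase of the Polycomb repressive complex PRC2. All groups are of this single tumour line.

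TRAIL and FAS ligand are trimeric members of the TNF family that cluster receptors carrying a death domain. The clustered receptors bind the adaptor FADD, which brings in the initiator caspase encoded by CASP8, while the product of CFLAR (c-FLIP) competes for the same platform and restrains it. The decoy receptors bind TRAIL without passing on a full death signal. In epithelial tumour cells the active caspase cleaves effector caspases directly or engages the mitochondrial route through BID.

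Promoter windows from RefSeq (GRCh38.p14, 250 bases before to 50 bases after a start site) were used for 6 of the 10 genes and gave 13 windows. Windows of TNFRSF10A, TNFRSF10B, TNFRSF10C and TNFRSF10D were not searched and are not reported here. Those of the 3 genes that rose against DMSO in every treated group are shown, since most of the results below concern their transcripts. The TNFSF10 window lies at chr3:172523381-172523680 on the minus strand, the TNFRSF21 window at chr6:47309856-47310155 on the minus strand, and the FAS window, the upstream most of 3, at chr10:88990548-88990847 on the plus strand. Each is written 5′ to 3′ along the gene, and capitals mark motif matches.
TNFSF10: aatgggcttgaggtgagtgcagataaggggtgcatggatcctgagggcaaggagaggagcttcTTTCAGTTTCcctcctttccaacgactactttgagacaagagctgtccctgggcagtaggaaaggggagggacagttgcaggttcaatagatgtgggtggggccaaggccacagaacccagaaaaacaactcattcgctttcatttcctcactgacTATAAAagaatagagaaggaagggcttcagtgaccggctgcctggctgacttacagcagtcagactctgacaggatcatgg
TNFRSF21: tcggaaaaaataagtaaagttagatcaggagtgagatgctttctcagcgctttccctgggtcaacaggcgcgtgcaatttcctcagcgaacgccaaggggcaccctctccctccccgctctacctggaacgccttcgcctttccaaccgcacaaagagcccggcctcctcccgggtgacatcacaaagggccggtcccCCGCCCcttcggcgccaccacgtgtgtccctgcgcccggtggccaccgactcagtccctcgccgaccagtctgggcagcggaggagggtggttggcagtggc
FAS: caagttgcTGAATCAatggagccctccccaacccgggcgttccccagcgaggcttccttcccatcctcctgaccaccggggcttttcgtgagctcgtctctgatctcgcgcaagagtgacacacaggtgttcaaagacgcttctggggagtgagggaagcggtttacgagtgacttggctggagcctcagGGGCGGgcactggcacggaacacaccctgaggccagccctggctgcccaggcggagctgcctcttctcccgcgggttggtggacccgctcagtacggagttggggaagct
In the TNFSF10 window the capitals are an interferon response element (ISRE: GAAA, any 2 bases, GAAA, read on the opposite strand) beginning at -187 from the start site and a TATA box (TATAAA) beginning at -31. The TNFRSF21 window has a GC box (GGGCGG) on the opposite strand at -52, and the FAS window has an AP-1 motif (TGANTCA) at -242 and a GC box at -60. Both strands were searched. Of 35116 promoter windows of the same 300 bases, 3.57% held the interferon element, 11.5% the TATA box, 45% the GC box and 7.71% the AP-1 motif. A FOXO motif (GTAAACA), held by 3.42% of all windows, was found in none of the 13 windows, which says only that these letters are not in these stretches.

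Levels are in CPM (read counts relative to library size), on library totals scaled by the TMM method, with n = 3 libraries in each group and means shown ± SD. Changes are log2 fold changes ± SE from edgeR's quasi-likelihood test in 1 fit of all libraries. A gene is said to have risen or fallen where its p, adjusted by the Benjamini-Hochberg method over all 14571 tested genes, was under 0.05. Whether the replicate letters stand for separate cultures is not stated in the labels, and the p-values therefore reflect library-to-library spread that may be technical. The 3 comparisons against DMSO share the DMSO libraries and are not independent of each other.

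Of the 10 genes, 9 passed the filter on low counts, which was run over the libraries of all groups together. In cells given DMSO, levels per kilobase of annotated exon spanned a wide range. TNFRSF21 was highest at 31.4 ± 0.281 CPM per kb, followed by FADD at 24.9 ± 0.362 and TNFSF10 at 24.8 ± 1.49, which did not differ beyond their spread. CASP8 (5.62 ± 0.392 CPM per kb) and TNFRSF10B (5.07 ± 0.176) came next with overlapping spreads. CFLAR was at 2.78 ± 0.195 CPM per kb, a value that depends on its long annotated exon union of 22529 bases, and TNFRSF10A was at 2.49 ± 0.0441. TNFRSF10C (0.386 ± 0.0621 CPM per kb) and FAS (0.112 ± 0.0545) were weakly expressed, and TNFRSF10D was at 0.00428 ± 0.00741. With the vehicle, then, transcripts of the ligand, DR4, DR5, DR6 and the intracellular components were present, and those of FAS and the decoy receptors were scarce.

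TNFSF10, which encodes the death ligand TRAIL, rose in every treated group, most with ipatasertib present. Its level was 89.6, 80.2 and 88.7 CPM in the DMSO libraries A, B and C (86.2 ± 5.18), and 274, 285 and 272 CPM with ipatasertib (277 ± 7.05). With tazemetostat it was 109, 101 and 98.6 CPM (103 ± 5.36), and with both drugs 333, 388 and 358 CPM (360 ± 27.5). No 2 of the 4 groups overlapped. Against DMSO the log2 fold change was 1.68 ± 0.071 SE with ipatasertib (3.21-fold, edgeR adjusted p = 6.8e-14), 0.25 ± 0.071 with tazemetostat (edgeR adjusted p = 0.00525) and 2.06 ± 0.072 with the combination (4.17-fold, edgeR adjusted p = 2.85e-16). The order of the groups was DMSO, tazemetostat, ipatasertib and combination, and each step in it passed the test. The combination exceeded ipatasertib alone by 0.38 ± 0.069 on the log2 scale (edgeR adjusted p = 0.000118), and ipatasertib exceeded tazemetostat by 1.43 ± 0.071 (edgeR adjusted p = 2.13e-13). The combination exceeded tazemetostat alone by 1.81 ± 0.071 (edgeR adjusted p = 9.93e-15). Of all tested genes, 1.29% had a larger log2 fold change than TNFSF10 with ipatasertib and 5.63% with the combination. In bulk RNA such as this, a change in the number of expressing cells and a change in RNA per cell cannot be told apart.

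**Figure D1:**
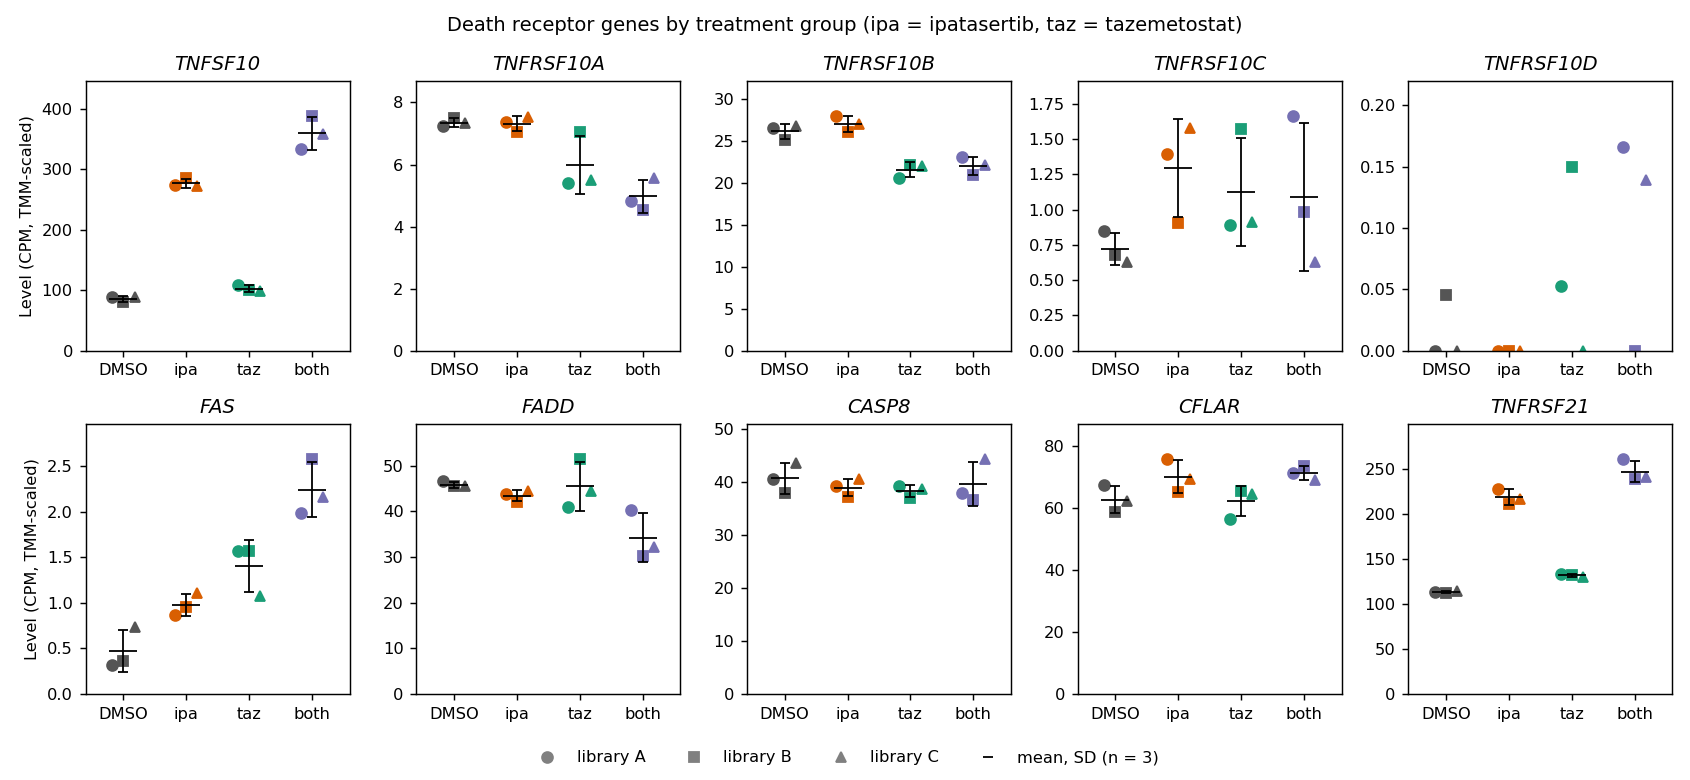
Level of each of the 10 genes (y axis, TMM-scaled CPM, own scale for each gene, starting at 0) in the 4 treatment groups (x axis), with 1 point per library and bars for mean and SD (n = 3). No mean is drawn for TNFRSF10D, which had 11 counts in all; TNFSF10 climbs from 86.2 CPM with DMSO to 360 with both drugs, while CASP8 stays between 36.6 and 44.3 CPM in every library.

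The signalling receptors for TRAIL did not rise with their ligand. TNFRSF10B, which encodes DR5, was at 26.6, 25.1 and 26.8 CPM with DMSO (26.1 ± 0.905) and 27.9, 26.1 and 27.0 CPM with ipatasertib (27.0 ± 0.911). It was at 20.6, 22.2 and 21.9 CPM with tazemetostat (21.6 ± 0.859) and 23.0, 20.9 and 22.1 CPM with both drugs (22.0 ± 1.06). The libraries that had received tazemetostat lay below all those that had not. TNFRSF10B fell with tazemetostat, with a log2 fold change of -0.28 ± 0.077 SE (edgeR adjusted p = 0.00506), and with the combination (-0.25 ± 0.079, edgeR adjusted p = 0.00963), and the combination was also below ipatasertib alone (-0.29 ± 0.080, edgeR adjusted p = 0.00474). With ipatasertib alone the difference from DMSO was 0.05 with a 95% interval of -0.11 to 0.20 (edgeR adjusted p = 0.642). Scaling by library totals alone moved the combination value to -0.19 (edgeR adjusted p = 0.0516), which ends that call. RHOBTB2, which overlaps TNFRSF10B on the opposite strand, was at 18.7, 27.0, 19.0 and 24.9 CPM in the 4 groups in the order DMSO, ipatasertib, tazemetostat and combination. Whether reads were counted by strand is not stated in those sources that were used, and the part of RHOBTB2 in the TNFRSF10B counts was not tested.

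TNFRSF10A, which encodes DR4, fell with the combination. It was at 7.23, 7.49 and 7.33 CPM with DMSO (7.35 ± 0.130) and at 7.36, 7.04 and 7.53 CPM with ipatasertib (7.31 ± 0.246). With tazemetostat the libraries held 5.40, 7.06 and 5.49 CPM (5.98 ± 0.933), and with both drugs 4.82, 4.55 and 5.57 CPM (4.98 ± 0.530). Library B stood above A and C in the tazemetostat group, and only the combination group was clear of both groups without tazemetostat. The combination differed from DMSO by -0.56 ± 0.132 SE (edgeR adjusted p = 0.000794) and from ipatasertib by -0.56 ± 0.134 (edgeR adjusted p = 0.00174). Tazemetostat alone differed from DMSO by -0.29 ± 0.119 and did not pass (edgeR adjusted p = 0.0522). Without its library B the value was -0.45 (edgeR adjusted p = 0.0077). The combination and tazemetostat alone differed by -0.27 with a 95% interval of -0.56 to 0.01, which did not pass (edgeR adjusted p = 0.104). The 4 TNFRSF10 genes are related in sequence, so reads that do not align uniquely can be lost from their counts. Such reads stayed out of the gene counts, and the loss for these genes was not measured. The values of these genes are uncertain to that extent.

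The number of ligand reads per DR5 read was also compared. TNFSF10 counts were 3.37, 3.19 and 3.31 times the TNFRSF10B counts in the DMSO libraries and 9.82, 10.9 and 10.1 times with ipatasertib. The ratio was 5.29, 4.56 and 4.49 with tazemetostat, and 14.5, 18.5 and 16.2 with both drugs. No 2 groups overlapped in this ratio, which is of reads and not of molecules or protein.

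The decoy receptor genes stayed low. TNFRSF10C, whose product is a membrane-anchored decoy without a death domain, had 24, 15 and 17 counts in the DMSO libraries, 32, 17 and 40 with ipatasertib, 17, 42 and 22 with tazemetostat and 30, 13 and 9 with both drugs. In CPM this was 0.721 ± 0.116, 1.29 ± 0.346, 1.12 ± 0.384 and 1.09 ± 0.525 in the same order. The combination group spanned the DMSO group. It rose with ipatasertib (log2 fold change 0.86 ± 0.319 SE, edgeR adjusted p = 0.0301), a call that was lost without DMSO library B (edgeR adjusted p = 0.0776), DMSO library C (0.105), ipatasertib library A (0.0918) or ipatasertib library C (0.153). With tazemetostat (0.66, edgeR adjusted p = 0.0965) and the combination (0.64, edgeR adjusted p = 0.119) it did not pass. TNFRSF10D, a decoy with a truncated death domain, had 0, 1 and 0 counts with DMSO, none with ipatasertib, 1, 4 and 0 after tazemetostat and 3, 0 and 2 after both drugs. These 11 counts were under the filter on low counts and allow no fold change. A count of 3 in a library, the limit that a count of 0 allows, corresponds to 0.106 to 0.227 CPM.

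FAS, the receptor for FAS ligand, rose in every treated group from a very low level. It had 9, 8 and 20 counts in the DMSO libraries, which is 0.319, 0.363 and 0.741 CPM (0.474 ± 0.232). With ipatasertib it was at 0.871, 0.960 and 1.10 CPM (0.978 ± 0.117), with tazemetostat at 1.57, 1.57 and 1.08 CPM (1.41 ± 0.282), and with both drugs at 1.99, 2.58 and 2.16 CPM (2.24 ± 0.301). All 9 treated libraries lay above the 3 DMSO libraries, and the combination libraries lay above all others. FAS rose with ipatasertib (log2 fold change 1.03 ± 0.322 SE, edgeR adjusted p = 0.0112), tazemetostat (1.54 ± 0.298, edgeR adjusted p = 0.000201) and both drugs (2.20 ± 0.294, 4.60-fold, edgeR adjusted p = 9.27e-07). The combination exceeded ipatasertib by 1.17 ± 0.263 (edgeR adjusted p = 0.000926) and tazemetostat by 0.66 ± 0.245 (edgeR adjusted p = 0.0307). The single drugs did not differ from each other past the threshold (ipatasertib against tazemetostat -0.51, 95% interval -1.06 to 0.04, edgeR adjusted p = 0.118).

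The weaker FAS calls rested on few counts. FAS passed the filter on low counts (minimum count 10) only through the treated groups, as its counts with DMSO were too few. Its rises against DMSO therefore begin from values near that limit. The rise with ipatasertib was lost without DMSO library A (0.78, edgeR adjusted p = 0.0731), without ipatasertib library C (0.91, edgeR adjusted p = 0.0565) and without the A libraries of all groups (0.86, edgeR adjusted p = 0.0618). The step from tazemetostat to both drugs was lost with DESeq2 (adjusted p = 0.0623) and without tazemetostat library C (edgeR adjusted p = 0.152), combination library B (0.122) or combination library C (0.0594). The rises with tazemetostat and with the combination passed in all 19 other settings that kept the gene. ACTA2, the smooth muscle actin gene that overlaps FAS on the opposite strand, was at 0.267, 0.406, 0.555 and 0.930 CPM in the order DMSO, ipatasertib, tazemetostat and combination, which is the order of FAS as well. Its part in the FAS counts was not tested. FASLG, the gene of the FAS ligand, had 0 counts in all 12 libraries.

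TNFRSF21, which encodes the death-domain receptor DR6, had the same order of groups as TNFSF10 with a smaller range. It was at 113, 112 and 114 CPM with DMSO (113 ± 1.01) and 228, 212 and 216 CPM with ipatasertib (219 ± 8.67). The level was 133, 132 and 130 CPM with tazemetostat (132 ± 1.98) and 261, 239 and 241 CPM with both drugs (247 ± 11.8). The 4 groups did not overlap. Against DMSO it rose by 0.95 ± 0.062 SE with ipatasertib (1.94-fold, edgeR adjusted p = 6.28e-11), 0.22 ± 0.062 with tazemetostat (edgeR adjusted p = 0.00521) and 1.13 ± 0.062 with the combination (2.19-fold, edgeR adjusted p = 5.55e-13). With ipatasertib 4.49% of tested genes had a larger log2 fold change. The step from ipatasertib to both drugs was 0.18 ± 0.061 (edgeR adjusted p = 0.0221) and was lost in 5 of 20 other settings, among them without ipatasertib library B (edgeR adjusted p = 0.135), ipatasertib library C (0.0949) or combination library A (0.0773).

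Of the genes whose products act below the receptors, FADD fell with the combination, CASP8 did not pass in any comparison, and CFLAR rose slightly with the combination. FADD was at 46.6, 45.5 and 45.4 CPM with DMSO (45.8 ± 0.666) and 43.8, 42.0 and 44.3 CPM with ipatasertib (43.4 ± 1.23). With tazemetostat it was at 40.9, 51.4 and 44.4 CPM (45.5 ± 5.35), and with both drugs at 40.3, 30.2 and 32.2 CPM (34.2 ± 5.37). The combination libraries lay below every other library, with library A nearest to them. The combination differed from DMSO by -0.41 ± 0.096 SE on the log2 scale (edgeR adjusted p = 0.000738), from tazemetostat by -0.41 ± 0.097 (edgeR adjusted p = 0.00154) and from ipatasertib by -0.34 ± 0.097 (edgeR adjusted p = 0.00747). The last call was lost without combination library B (-0.26, edgeR adjusted p = 0.0541). Each drug alone differed from DMSO by less than the test could call, by -0.08 (95% interval -0.27 to 0.11) with ipatasertib and -0.01 (-0.20 to 0.19) with tazemetostat.

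CASP8, the initiator caspase gene, was at 40.6, 37.9 and 43.6 CPM in the DMSO libraries (40.7 ± 2.84) and at 39.2, 37.2 and 40.5 CPM after ipatasertib (39.0 ± 1.68). After tazemetostat it was at 39.2, 37.1 and 38.7 CPM (38.3 ± 1.13), and after both drugs at 37.9, 36.6 and 44.3 CPM (39.6 ± 4.11). The groups overlapped in all 6 pairwise comparisons. The largest difference from DMSO was -0.09 with tazemetostat, with a 95% interval of -0.25 to 0.08, and no other setting called the gene. CFLAR, which has a long and a short inhibitory isoform that gene counts do not separate, was at 67.3, 58.6 and 62.1 CPM with DMSO (62.7 ± 4.39) and 71.4, 73.5 and 69.1 CPM with both drugs (71.3 ± 2.22). It was at 70.2 ± 5.22 CPM with ipatasertib and 62.3 ± 5.00 with tazemetostat. The combination passed narrowly against DMSO (0.19 ± 0.078 SE, edgeR adjusted p = 0.043) and against tazemetostat (0.19 ± 0.079, edgeR adjusted p = 0.0474), and these calls held in only 6 and 2 of 20 other settings. With ipatasertib alone the difference from DMSO was 0.16 with a 95% interval of 0.00 to 0.32 and did not pass (edgeR adjusted p = 0.0892), although it passed in 3 of 20 other settings. CFLAR counts were 1.66, 1.55 and 1.43 times the CASP8 counts with DMSO and 1.93, 1.76 and 1.71 times with ipatasertib, where every library lay above every DMSO library. The ratio was 1.44, 1.77 and 1.67 with tazemetostat and 1.88, 2.01 and 1.56 with both drugs, and both of these ranges overlap that of DMSO.

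**Figure D2:**
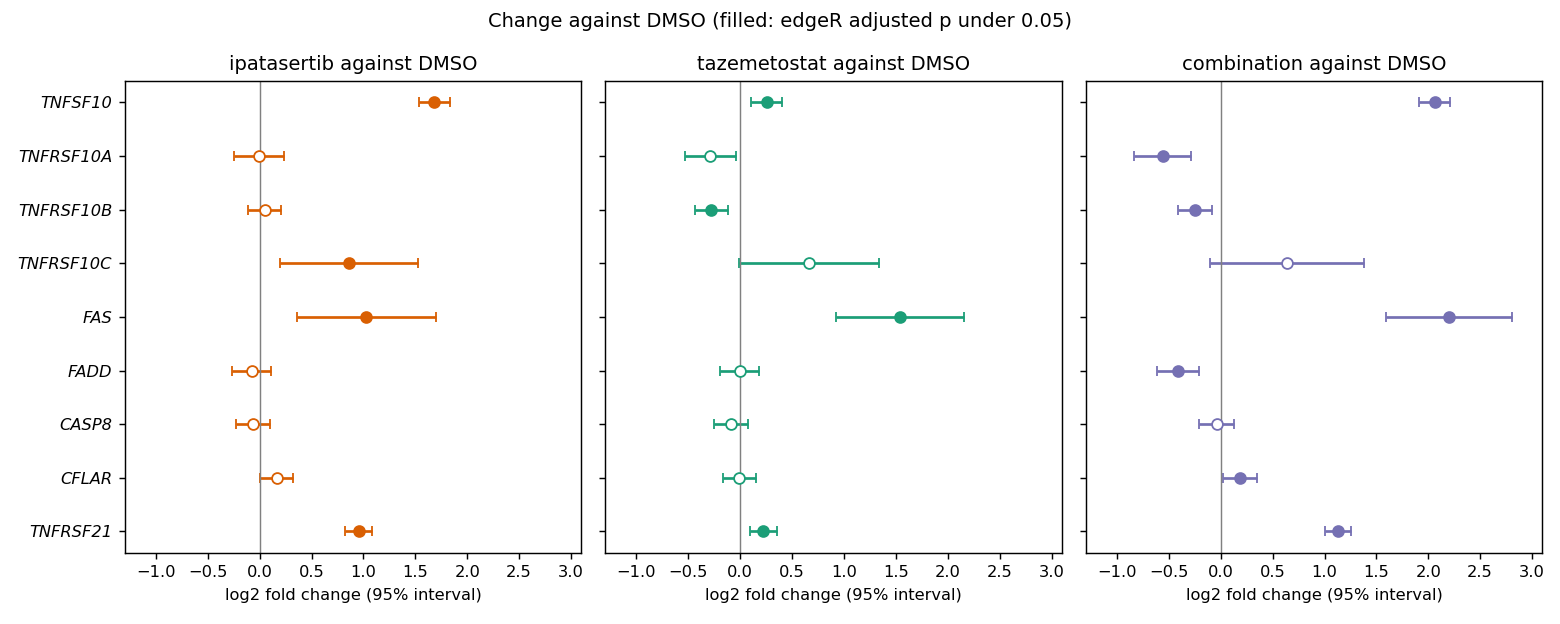
Log2 fold change against DMSO (x axis) of the 9 tested genes with ipatasertib, tazemetostat and both drugs, with 95% intervals derived from edgeR's test. Filled points passed the threshold. TNFSF10, FAS and TNFRSF21 lie to the right of 0 with every treatment, and TNFRSF10A, TNFRSF10B and FADD lie to the left with the combination.

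Counted over the 9 tested genes, 4 rose and none fell with ipatasertib, where 24% of all tested genes rose and 23.1% fell. With tazemetostat 3 rose and 1 fell, against 25.9% and 21.3% of all genes. With the combination 4 rose and 3 fell, against 34.4% and 30% of all genes. FAS is among the genes counted as risen against DMSO with each treatment. It passed the filter on low counts only through the treated groups, so its place in these counts is not independent of the filter. The combination compared with ipatasertib gave 3 higher and 3 lower (24.2% and 20.7% of all genes, 44.9% in either direction), and compared with tazemetostat 4 higher and 1 lower (23.2% and 23.1%, 46.3% in either direction). Ipatasertib compared with tazemetostat gave 3 higher and 0 lower (22.4% and 26%, 48.3% in either direction). In both comparisons with no gene lower by edgeR, none was lower at an unadjusted p under 0.05 and DESeq2 called 0 lower. The median log2 fold change against DMSO was 0.16, -0.01 and 0.19 for ipatasertib, tazemetostat and the combination, and over all tested genes it was 0.00386, 0.00899 and 0.0305. In either direction 47.1%, 47.2% and 64.4% of all tested genes passed against DMSO, so a high count of called genes is the rule here, and the counts are not read as particular to the TRAIL and FAS genes. Of the genes called with tazemetostat 54.9% were higher, and 67.9% with scaling by library totals, where the counts of the 9 genes stayed at 3 higher and 1 lower.

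Whether the 2 drugs together did more or less than the sum of their single effects was tested as an interaction in the same fit. None of the 9 genes passed, while 12% of all tested genes did, 5.96% above the sum and 6.01% below it. For TNFSF10 the single effects added up to 1.94 and the combination measured 2.06, a difference of 0.12 with a 95% interval of -0.08 to 0.33. TNFRSF21 had a sum of 1.18 and measured 1.13, and FAS had a sum of 2.57 and measured 2.20. FADD was the sole gene with an unadjusted p under 0.05: its sum was -0.09 and it measured -0.41, a difference of -0.33 ± 0.134 SE (edgeR adjusted p = 0.106). DESeq2 called 0 of the genes as well, with 2 of the adjusted p-values not given. FADD passed without tazemetostat library A (-0.38, edgeR adjusted p = 0.0271), without combination library A (-0.47, 0.00882), without the 4 A libraries (-0.55, 0.000209) and with no filter on low counts (-0.34, 0.0444). TNFRSF10C passed without combination library A (-1.38, edgeR adjusted p = 0.0451) and without the 4 A libraries (-1.62, 0.0197).

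**Figure D3:**
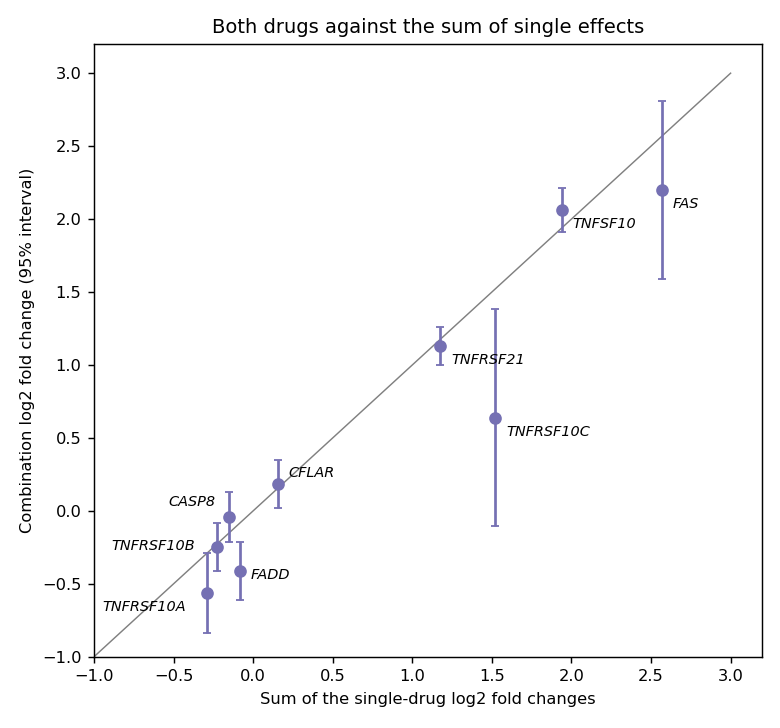
Log2 fold change measured with both drugs against DMSO (y axis, bars are 95% intervals) plotted against the sum of the 2 single-drug log2 fold changes (x axis) for the 9 tested genes; the line marks equality. TNFSF10, TNFRSF21, TNFRSF10B and CFLAR lie on or next to the line, and CASP8 (-0.15 on x, -0.04 on y) lies just above it. FADD (-0.09 on x, -0.41 on y), TNFRSF10C (1.52 on x, 0.64 on y), FAS (2.57 on x, 2.20 on y) and TNFRSF10A (-0.29 on x, -0.56 on y) lie below it.

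The wider death receptor pathway was described with a list of 48 further genes, of which 42 were tested. With ipatasertib 7 rose and 13 fell (24% and 23.1% of all tested genes did), with tazemetostat 7 rose and 7 fell (25.9% and 21.3%), and with both drugs 10 rose and 18 fell (34.4% and 30%). The median log2 fold changes were -0.06, -0.04 and -0.14. Among the other ligand and receptor genes, 6 of 11 were tested, and 2, 3 and 3 of them rose with ipatasertib, tazemetostat and both drugs while the rest did not pass. TNFSF15, which encodes the ligand TL1A, rose from 6.38 ± 0.685 CPM with DMSO to 10.5 ± 0.278 with ipatasertib and 19.9 ± 0.890 with both drugs (log2 fold change 1.65 ± 0.103 SE, edgeR adjusted p = 5.45e-12). TNFRSF11B, singled out after its values were seen because it encodes osteoprotegerin, a soluble decoy for TRAIL, was at 0.120 ± 0.124 CPM with DMSO and 1.69 ± 0.229 with both drugs (3.65 ± 0.470 SE, edgeR adjusted p = 4.83e-07). It had only 7, 0 and 3 counts in the DMSO libraries. It passed the filter on low counts only through the groups given tazemetostat, where it is high. Its call is therefore not independent of the filter, and the size of its rise is uncertain. TNFRSF1A, the main TNF receptor gene, rose with tazemetostat (0.29).

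Of 20 tested adaptor, kinase and ubiquitin genes, 5 rose and 8 fell with the combination, where 34.4% of all tested genes rose and 30% fell. RIPK1, the kinase that links death receptors to survival or necroptosis, rose with ipatasertib (0.32), tazemetostat (0.37) and both drugs (0.38), and CYLD, which removes ubiquitin chains from it, rose with both drugs (0.46), as did BIRC2 (0.47), which encodes the ubiquitin ligase cIAP1. MLKL, the effector of necroptosis, fell from 21.9 ± 1.86 CPM with DMSO to 16.8 ± 1.58 with ipatasertib, 17.4 ± 0.711 with tazemetostat and 9.83 ± 1.09 with both drugs. Its log2 fold change with both was -1.15 ± 0.106 SE (edgeR adjusted p = 4.09e-09), the largest fall of the list. NOL3, an inhibitor of apoptosis that binds death domains and caspases, fell as well (-0.98 ± 0.127 with both drugs). A promoter and a restrainer of cell death were thus the leading falls of this group.

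All 16 caspase and effector genes were tested, and with ipatasertib 8 fell while the others did not pass, where 23.1% of all tested genes fell and 24% rose. CYCS, which encodes cytochrome c, fell from 671 ± 29.4 CPM with DMSO to 323 ± 7.39 with ipatasertib (-1.05 ± 0.068 SE, edgeR adjusted p = 7.36e-11) and stood at 606 ± 40.5 with tazemetostat and 408 ± 28.2 with both drugs. With the combination 2 of the 16 rose and 10 fell (34.4% and 30% of all tested genes did). CASP10, an initiator caspase gene related to CASP8, rose with tazemetostat (0.49 ± 0.080) and with both drugs (0.42 ± 0.083) while CASP8 did not pass. DFFA, the inhibitor of the apoptotic DNase, fell with both (-0.75), and so did BAK1 (-0.65), a pore former of the outer mitochondrial membrane.

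**Figure D4:**
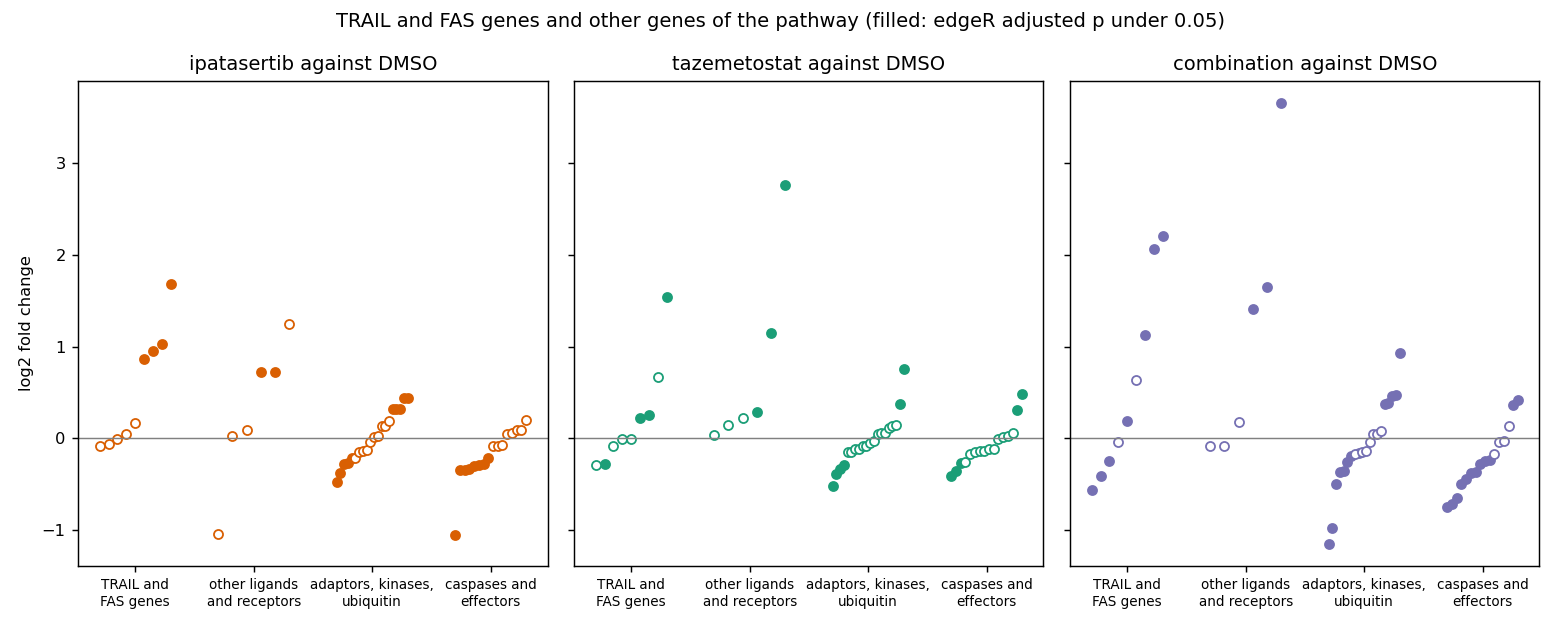
Log2 fold change against DMSO (y axis) of each tested gene among the TRAIL and FAS genes and the 3 groups of the pathway list (x axis), with genes sorted within a group and filled points for those that passed the threshold. Among the caspases and effectors 10 of 16 fell with both drugs (30% of all tested genes did), while TNFSF10 (2.06) and FAS (2.20) are the highest of the TRAIL and FAS genes.

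Transcription factors known to act on these genes were looked at as a list of 12, all tested. With ipatasertib 7 rose and 1 fell (24% and 23.1% of all tested genes did), with tazemetostat 4 rose and 3 fell (25.9% and 21.3%), and with both drugs 5 rose and 2 fell (34.4% and 30%). In either direction 47.1%, 47.2% and 64.4% of all tested genes passed, so 7 of 12 called with both drugs is near the background. FOXO4, a forkhead factor that AKT holds out of the nucleus, rose with ipatasertib (1.25), tazemetostat (0.64) and both drugs (1.57). FOXO1, of the same family, rose by 0.59, 1.44 and 1.77, and FOXO3 rose with tazemetostat (0.54) and both drugs (0.59) but did not pass with ipatasertib (0.11, edgeR adjusted p = 0.149). DDIT3, which encodes the stress factor CHOP, known as an activator of the DR5 gene, rose with tazemetostat (0.40) and both drugs (0.90), the groups in which TNFRSF10B fell. A link between DDIT3 and TNFRSF10B was not tested. IRF1, which acts on interferon elements, did not pass in any comparison against DMSO. MYC rose with ipatasertib (0.55) and fell with tazemetostat (-0.80) and both drugs (-1.20).

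Genes with the pattern most like a member were found by the Pearson correlation of log2 CPM over the 12 libraries, among 11415 genes with at least 5 CPM in a group. The libraries share the 4 treatment groups, so the values are descriptions with no test. For TNFSF10 the closest were CTGF (r = 0.997), EMP1 (0.995) and LOC284344 (0.995). CTGF, a secreted matrix protein gene, was at 23.6 ± 0.145, 96.3 ± 2.28, 25.9 ± 1.95 and 132 ± 8.13 CPM in the order DMSO, ipatasertib, tazemetostat and combination. For FAS they were NMNAT3 (0.966), C20orf96 (0.962) and RNF20 (0.961), with NMNAT3, an enzyme of NAD synthesis, at 4.32 ± 0.816, 6.89 ± 0.238, 10.2 ± 0.175 and 14.5 ± 1.08 CPM. For CASP8, which varied little, the closest was UVRAG at r = 0.769.

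The libraries held 12981622 to 28746965 counts in genes, fewest in the combination group (12981622 to 17948209). The share of reads assigned to no feature was 19.9 ± 1.43% for DMSO and 25.2 ± 0.952% for both drugs, a difference of 5.35 points (exact permutation p = 0.1, two-sided, the smallest that 3 against 3 libraries allow), and their part in the results was not tested. With ipatasertib the share was 22.3 to 24.3% (3.40 points above DMSO, exact permutation p = 0.1) and with tazemetostat 21.1 ± 1.64% (1.28 points, exact permutation p = 0.5). Library A differed more from B and C than these did from each other in every group. Of 10 genes listed as markers of breast epithelium, KRT5, KRT7, KRT8, KRT18, EGFR, EPCAM, CDH1 and FOXC1 had mean levels from 126 to 1718 CPM with DMSO, while KRT6A (2.05 CPM) and SOX10 (0.116 CPM) were low. The list is not a test of basal identity. KRT5 fell from 1718 ± 74.3 CPM with DMSO to 442 ± 35.7 CPM with both drugs (log2 fold change -1.96, edgeR adjusted p = 4.4e-16), and ESR1 (1.71 CPM with DMSO) and PGR (0.00) were low or at 0. Of 10 leukocyte markers, 8 were under 1 CPM in all groups and CD3D had no count. The summed leukocyte level was 78.8 to 84.5 CPM with DMSO, 75.6 to 97.6 with ipatasertib, 57.6 to 65.6 with tazemetostat and 60.9 to 70.5 with both drugs, nearly all from CD14. The summed level of 6 fibroblast markers was 9.72 to 11.7, 5.23 to 5.53, 15.7 to 19.3 and 9.48 to 11.4 CPM in the order DMSO, ipatasertib, tazemetostat and combination, with 4 of the 6 under 1 CPM. That of 5 endothelial markers was 20.5 to 20.9, 30.0 to 31.5, 13.2 to 16.2 and 22.0 to 24.0 CPM, with 3 of the 5 under 1 CPM. All groups are of a single tumour line, and the source of these marker transcripts was not tested.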

How the data were processed

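Polyadenylated RNA of MDA-MB-468 cells was extracted with RNeasy Plus and made into Kapa Hyper Prep libraries, per the labels' protocols. For each of the 12 libraries, a table of raw counts by gene symbol was deposited by the authors. The submitters' processing notes name STAR, SAMtools, HTSeq, DESeq2 and the build hg19, with no versions. The annotation and the strand setting, not given in the sources used here, remain unknown. A deposited table of normalized values was not used. Genes took 60.5 to 68.0% of the counted total, and lines that name no gene (no feature, ambiguous and the like) stayed out of library sizes and tests. Of 23228 genes, 3351 had no read.

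Counts were tested with edgeR 4.0.16 in R 4.3.3: filterByExpr (minimum count 10), TMM factors, 1 robust quasi-likelihood fit (group means, 8 residual degrees of freedom), and Benjamini-Hochberg adjustment over 14571 genes at 0.05. Comparisons were each treatment against DMSO, the combination against each drug, the drugs against each other, and the interaction. Floors of 3 counts reflect counting error alone, because without molecular identifiers several reads may stem from the same molecule. Log2 CPM for the correlations used a prior count of 2. Exon lengths and overlapping genes come from GENCODE v29 (GRCh38), another build than the authors' own, and no coordinates are carried over.

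The genes, the pathway, regulator and marker lists and the tests were chosen with earlier results of these data known. Pathway genes named are up to 5 per direction and comparison with the largest fold change, adjusted p under 0.05 and at least 5 CPM in the highest group; TNFRSF11B is outside that rule. The 12 regulators and the 3 genes most correlated with TNFSF10, FAS and CASP8 could be named, and some listed genes are not reported here. The procedure was tested on simulated data. Other settings tried were DESeq2 1.42.0, scaling by RLE factors or by library totals, filters of none or of 50 counts in 3 libraries, the 2 groups alone, the replicate letter as a block, and libraries left out.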

Additional observations from a re-analysis of the deposited data

Results flagged for a closer look

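No library was examined for outlying values, because groups of 3 are too small for that test. For 7 of the 42 tested pathway genes and 12 regulators the effect of ipatasertib differed between cells with and without tazemetostat by the interaction in edgeR's fit (log2 difference of the combination from the sum of single effects, all edgeR adjusted p under 0.05). Over all tested genes 12% passed the interaction, so this count is near the background. None of the 7 is a TRAIL or FAS gene. MYC, a transcription factor that raises growth and can sensitise cells to TRAIL, stood furthest below the sum: the interaction was -0.94 (edgeR adjusted p = 1.41e-05), with 69.3 ± 2.77 CPM for DMSO, 101 ± 2.97 for ipatasertib, 39.7 ± 2.24 for tazemetostat and 30.1 ± 1.78 for both drugs. TNFRSF1A, the TNF receptor gene, was also below the sum at -0.4 (edgeR adjusted p = 0.0148). Above the sum were the ligand gene TNFSF15 at 0.77 (edgeR adjusted p = 0.00297), the apoptosis inhibitor gene FAIM at 0.54 (0.0219), the cytochrome c gene CYCS at 0.48 (0.00375), the effector caspase gene CASP6 at 0.41 (0.0292) and the caspase inhibitor gene XIAP at 0.35 (0.0458).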

How the results depend on the processing

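Over the pairwise comparisons and the interaction, 1235 values of single genes were recomputed under other settings; 1164 stayed on the same side of the threshold (42 of them uncalled values whose sign changed), 50 lost their call, 21 gained one and 0 called values changed sign. The rises of TNFSF10 passed in all 20 settings in the 6 pairwise comparisons. Counts of TRAIL and FAS genes higher with ipatasertib went from 4 to 2 with a filter of 50 counts in 3 libraries. That filter left FAS and TNFRSF10C untested, so their calls could not be kept. With a library left out these counts were 2 to 4 (2 without ipatasertib C). Those lower with tazemetostat went from 1 to 2 with RLE factors and were 1 to 2 with a library left out (2 without any ipatasertib library, tazemetostat B, combination A or combination B). Those higher with the combination than with tazemetostat went from 4 to 2 with DESeq2 and were 2 to 4 with a library left out (2 without tazemetostat C, combination B or combination C), and those higher with ipatasertib than with tazemetostat were 3 to 5 (5 without tazemetostat B). For the interaction the genes lower went from 0 to 1 with no filter and to 2 without the 4 A libraries, and were 0 to 2 with a library left out (1 without tazemetostat A, 2 without combination A). Of the pathway genes, those lower with tazemetostat went from 7 to 11 without the A libraries. With a library left out, those higher with ipatasertib were 4 to 8 (7 in full, 4 without ipatasertib A), those lower with the combination than with ipatasertib 7 to 14 (12 in full, 7 without combination B), those higher with ipatasertib than with tazemetostat 3 to 8 (6 in full, 3 without tazemetostat B), those above the sum in the interaction 2 to 7 (5 in full, 2 without DMSO B or C, ipatasertib A, tazemetostat B or C, or combination B) and those below it 0 to 4 (1 in full, 0 without tazemetostat C or combination B, 2 without ipatasertib A or combination C, 4 without tazemetostat A or combination A). Pathway genes below the sum in the interaction went from 1 to 4 with library totals, 3 with DESeq2, 2 with no filter, 3 with the filter of 50 counts and 12 without the A libraries. Of genes called in the interaction 49.8% were above the sum, and 33.6% with library totals. Apart from the removal of FAS and TNFRSF10C by the filter of 50 counts, the causes were not tested.

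Whether the letters A, B and C pair the groups was not settled by the counts. Same-letter deviations correlated at over 0.1 in 1 of 3 pairs of ipatasertib and DMSO and in 0 of 3 pairs of the combination and DMSO. Between ipatasertib and DMSO each letter correlated best with its own (3 of 3, r from 0.030 to 0.138). Between the combination and DMSO 0 of 3 did. With the letter as a replicate block, CFLAR with both drugs against DMSO was 0.19 (edgeR adjusted p = 0.0687), against tazemetostat 0.19 (edgeR adjusted p = 0.0806), and the pathway genes above the sum went from 5 to 3. The block changed no other call of the 10 genes. Few counts limit FAS, TNFRSF10C and TNFRSF10D.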
